A study of Schizosaccharomyces pombe with 9 samples.

Results

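Polyadenylated transcripts were compared between a fission yeast (Schizosaccharomyces pombe) strain that carries htb1-E112K and clr6-1 together (E112K clr6-1) and one that carries htb1-E112K without clr6-1 (E112K). The comparison takes 6 of the 9 libraries of the study, 3 of each genotype, chosen by their genotype labels. The other 3 libraries are wild type (WT), which entered the shared estimate of the spread and are given as a level beside the values of the mutants. Both mutant groups share the E112K substitution in htb1, the only H2B gene of this yeast, so the comparison asks what differs when clr6-1 is added to it. Of the 5212 genes in the tables, 5119 had enough counts to be tested. The labels name whole cells and give neither the growth temperature nor the medium, nor the rest of each strain's genotype. Whether replicates were grown as separate cultures is not stated either, and every p-value therefore reflects the spread among these libraries alone, which may be technical.

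Clr6 is the essential class I histone deacetylase of fission yeast and is related to Rpd3 of budding yeast. It works in Sin3-type complexes: complex I acts mainly at promoters, and complex II, which holds the chromodomain protein Alp13, acts over transcribed regions and limits antisense transcription. The allele clr6-1 is a mutant of this enzyme that was isolated for loss of silencing at the mating-type region. Histone H2B pairs with H2A in the nucleosome, and the title of the study names its E112K substitution as an oncogenic mutation of a histone.

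Libraries held 17456781 to 20013351 counts in E112K clr6-1, 16469576 to 19217624 in E112K and 17795867 to 19597394 in WT. Levels below are CPM, the counts of a gene scaled to a common library size and not to gene length, and log2 fold changes are those of E112K clr6-1 over E112K. Replicates lay close together: the first principal component, with 67.2% of the variance, ran from E112K clr6-1 through E112K to WT, and the second, with 27.8%, set E112K apart from both other groups.

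The genes that define the strains were read first. Transcripts of clr6 (SPBC36.05c) stood at 119, 121 and 118 CPM in the E112K clr6-1 libraries and at 85.6, 86.7 and 89.1 CPM in the E112K libraries, with 135, 144 and 148 CPM in WT. The mutant groups did not overlap, and clr6 rose 1.37-fold (log2 fold change 0.45, SE 0.039, adjusted p = 2.29e-07 in edgeR's quasi-likelihood test, which gives every adjusted p below unless another tool is named). Transcripts of htb1 averaged 5435 ± 119 CPM in E112K clr6-1, 5131 ± 127 CPM in E112K and 1669 ± 43.0 CPM in WT (SD, n = 3 each), and the mutant groups differed by 0.08 on the log2 scale without passing the test (adjusted p = 0.0614). They passed with DESeq2 (adjusted p = 0.026), with total counts as the only scaling (0.0452), with only the 6 mutant libraries (0.0489) and without E112K replicate 1 (0.0374). A transcript level shows neither point mutation. Transcripts of ura4, the gene of orotidine-5'-phosphate decarboxylase and a common selection marker, also set the mutant strains apart. They stood at 145, 146 and 142 CPM in the E112K clr6-1 libraries and at 0 counts in every E112K and WT library. With a floor of 3 counts over the group, ura4 was at least 2554-fold higher in E112K clr6-1. The mating-type gene mat1-Mc, described further on, also had 0 counts in every E112K library. Whether ura4 and mat1-Mc differ by genotype or through clr6-1 was not tested. Effects of clr6-1 and of any other differences between the strains cannot be told apart with these libraries.

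Most genes differed between the mutant strains, but most differences were small. At an adjusted p under 0.05, 78.8% of the tested genes were called: 2060 genes were higher in E112K clr6-1 (40.2%) and 1975 were lower (38.6%), while 1084 did not pass. The median absolute log2 fold change was 0.29 over all tested genes, and the median signed one was 0.01. Of all tested genes, 80.5% had libraries of the mutant groups that did not overlap, 40.9% with E112K clr6-1 higher and 39.6% with it lower. Genes that passed and changed at least 2-fold numbered 374 (7.31%), of which 229 were higher in E112K clr6-1 (4.47%) and 145 were lower (2.83%). Of these, 62 were at least 4-fold higher and 28 at least 4-fold lower. Many genes overlap a neighbour in the reference annotation: 35.7% of the 345 genes changed at least 2-fold that it holds, and 42.6% of its 5030 tested genes. Because the counting strand is not given, reads of a gene and of its partner on the other strand cannot be told apart. Named genes that overlap another include clr6, cnp1, mde2, spo6, mug146, mam1, tps1, rip1 and pfk1, and the overlap is not repeated for each. Because so many genes passed, the counts of each group of genes below are to be read beside these shares of all tested genes (40.2% higher and 38.6% lower). Sizes of change are given for the named genes and for many of the groups.

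**Figure D1:**
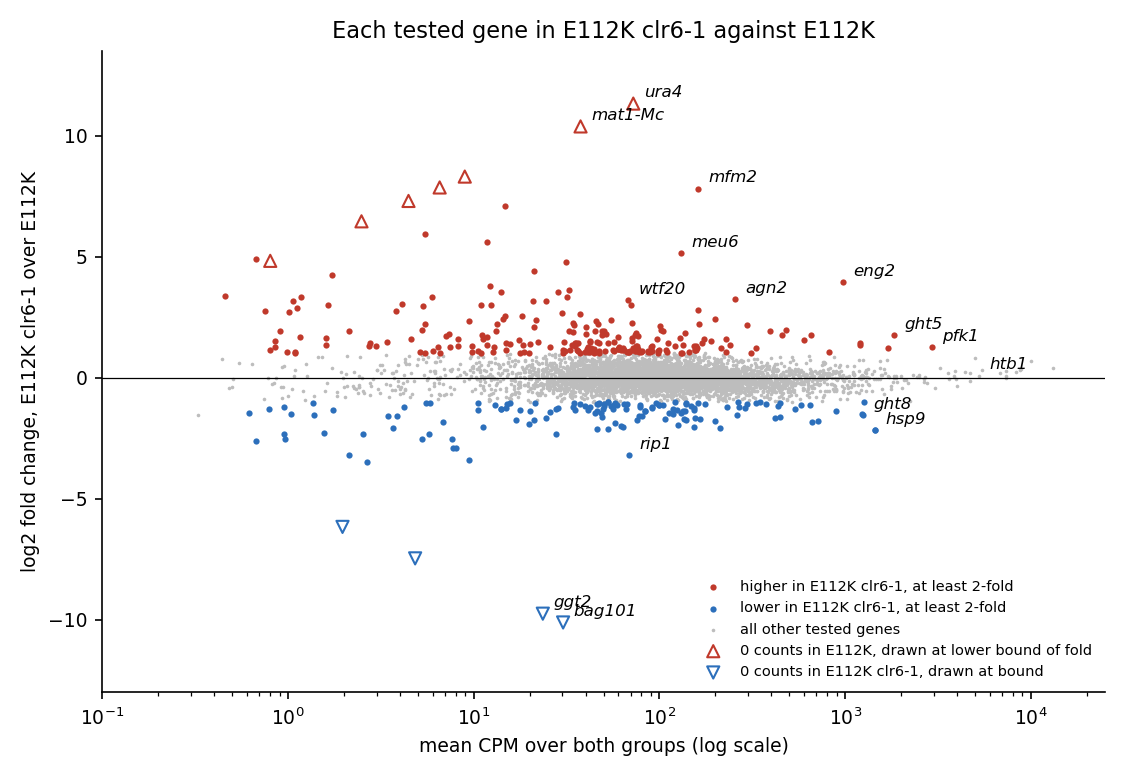
Log2 fold change of E112K clr6-1 over E112K (vertical axis) against the mean CPM of both groups (horizontal axis, log scale) for each tested gene. Red points are at least 2-fold higher in E112K clr6-1, blue points at least 2-fold lower, and triangles are genes with 0 counts in one group, drawn at the bound of their fold change; the abundant genes pfk1 and ght5 lie above the line, and hsp9 and ght8 lie below it.

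The deacetylase machinery itself shifted. Among the 18 genes of Clr6 complex subunits, 13 were called higher (72.2%) and 3 lower, and the median log2 fold change was 0.37. The largest rises were in complex I. The subunit gene sds3 had 109, 101 and 103 CPM in E112K clr6-1 and 49.4, 43.1 and 45.3 CPM in E112K (log2 fold change 1.19, adjusted p = 4.18e-10). Its partner rxt3 had 70.1, 69.3 and 70.2 CPM in E112K clr6-1 and 35.5, 30.6 and 31.4 CPM in E112K (log2 fold change 1.11, adjusted p = 4.87e-09). For both genes the groups were clear of each other, and dep1, another complex I subunit, rose by 0.69. The PHD-finger gene cph2 of complex II fell (-0.40 on the log2 scale, adjusted p = 7.5e-08), while alp13 differed by 0.07 (adjusted p = 0.0721).

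Among 11 genes of the SHREC, Set3 and sirtuin deacetylases, 3 rose (27.3%), 4 fell (36.4%) and 4 did not pass, no larger shares than among all tested genes. The SHREC subunit gene clr2 fell to 44.6, 41.1 and 41.5 CPM in E112K clr6-1, against 94.3, 89.0 and 89.1 CPM in E112K (log2 fold change -1.10, adjusted p = 2.41e-10), while clr3, the deacetylase of that complex, differed by 0.06 (adjusted p = 0.154). The scaffold gene set3 fell by 0.76. Of 18 genes of heterochromatin and RNA interference, 6 rose (33.3%) and 8 fell (44.4%), none by as much as 2-fold. The H3K9 methyltransferase gene clr4 rose (0.70) and the heterochromatin protein gene swi6 fell (-0.46), as did arb1 of the RNA interference pathway (-0.85). The gene clr4 overlaps meu6, a gene on the other strand with a log2 fold change of 5.16. How reads were divided between clr4 and meu6 was not tested.

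Histone genes changed little apart from the gene of the centromeric H3 variant. Of 11 histone genes, 6 rose (54.5%), 3 fell (27.3%) and 2 did not pass. The CENP-A gene cnp1 had 67.8, 70.3 and 68.1 CPM in E112K clr6-1, 24.3, 25.6 and 26.3 CPM in E112K and 32.5, 35.8 and 31.3 CPM in WT. It rose 2.70-fold over E112K (log2 fold change 1.44, SE 0.057, adjusted p = 1.56e-10), and the 3 groups did not overlap. The other histone genes that passed moved by at most 0.40 on the log2 scale, the value of the H4 gene hhf2. Of the H3 and H4 genes, hht2, hhf1 and hht1 rose as well, by 0.25, 0.15 and 0.11, while hht3 and hhf3 fell (-0.23 and -0.22). The call of hht1 was lost without E112K clr6-1 replicate 1 (adjusted p = 0.0561) and without E112K replicate 2 (adjusted p = 0.0546). The H2A.Z gene pht1 rose by 0.15, the H2A gene hta1 fell (-0.16), and hta2 had a log2 fold change of -0.08 (adjusted p = 0.0616), which passed with DESeq2 (0.0343), with upper quartile factors (0.0346) and without E112K replicate 2 (0.0441).

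The wtf genes rose as a family. They are a dispersed family of fission yeast that holds meiotic drivers, genes that poison spores which do not inherit them. All 21 tested members were higher in E112K clr6-1, 18 of them (85.7%) at least 2-fold, with a median log2 fold change of 1.46 against 0.01 over all tested genes. Their summed level was 1452 to 1469 CPM in the E112K clr6-1 libraries, 537 to 585 CPM in the E112K libraries and 435 to 463 CPM in WT. The member with the largest rise, wtf20, had 119.9, 124 and 122 CPM in E112K clr6-1, against 13.3, 12.7 and 13.7 CPM in E112K and 4.77, 5.27 and 5.48 CPM in WT (log2 fold change 3.20, SE 0.052, adjusted p = 9.57e-14). No library of one mutant group came near the other. The smallest rise was that of wtf7 (0.76), and wtf10, wtf18 and wtf9 rose by 2.23, 2.08 and 1.92. Several wtf genes are near-identical in sequence, so the split of reads between members is uncertain, whereas their sum does not depend on it. The other repeat family, the Tf2 retrotransposons, had fewer calls. Of its 11 tested elements 4 rose, none by 2-fold, and none fell. That none fell rests on single libraries: Tf2-1 was called lower without E112K clr6-1 replicate 2 (log2 fold change -1.09, adjusted p = 0.0201), and Tf2-4 without E112K replicate 1 (-0.36, adjusted p = 0.0269). The copies Tf2-3, Tf2-5, Tf2-6 and Tf2-12 carried identical fold changes, and reads of such copies cannot be told apart.

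Genes of meiosis and spore formation were mostly raised in E112K clr6-1, while regulators of meiotic entry moved in both directions. Of 25 genes of meiotic recombination and chromosomes, 19 rose (76%), 10 of them at least 2-fold (40%), and 3 fell, with a median log2 fold change of 0.65. These counts include mfr1 and mde2, which had few or no counts in E112K and WT. Both could pass the count filter only through E112K clr6-1, so their direction was fixed by the filter. Of 20 tested spore formation genes, 17 rose (85%), 8 at least 2-fold (40%), and 2 fell, with a median of 0.60. A change in the number of cells of a type and a change in RNA per cell cannot be told apart in such bulk samples.

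Among recombination genes, rec12, the fission yeast Spo11 that makes meiotic DNA breaks, had 21.99, 23.0 and 23.3 CPM in E112K clr6-1 and 8.11, 8.27 and 9.48 CPM in E112K (log2 fold change 1.39, adjusted p = 7.43e-09). The chromosome axis gene hop1 had 22.5, 21.5 and 21.9 CPM in E112K clr6-1, against 4.02, 5.26 and 4.87 CPM in E112K (log2 fold change 2.21, adjusted p = 6.07e-09). Neither gene had overlapping groups, and WT stood nearer to E112K than to E112K clr6-1 for both, with 7.68 and 7.83 CPM on average. The break-formation genes rec24 and mug20 rose by 1.45 and 1.91, and mes1, which restrains the anaphase-promoting complex between the meiotic divisions, rose by 1.19. The gene mde2, also required for break formation, had 26.2, 21.1 and 21.7 CPM in E112K clr6-1 and 0.488, 0.52 and 0.414 CPM in E112K (log2 fold change 5.59, adjusted p = 4.47e-09). As said above, the count filter fixed the direction of mde2, so its call is not read as a result. Among the genes that fell was mcp7, a partner of Meu13 in recombination, which fell to 9.995, 9.62 and 10.2 CPM in E112K clr6-1, against 26.3, 24.6 and 25.3 CPM in E112K (log2 fold change -1.35, adjusted p = 1.28e-09); it overlaps another gene in the reference annotation. The cohesin gene rec8 fell by 0.49.

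Spore genes that rose act at several steps, from the forespore membrane to the spore wall. The gene of the forespore membrane leading-edge protein, meu14, had 127, 125 and 121 CPM in E112K clr6-1, 15.7, 14.7 and 16.1 CPM in E112K and 14.1, 14.8 and 12.1 CPM in WT (log2 fold change 3.003, SE 0.062, adjusted p = 9e-13). The sporulation septin gene spn5 had 37.6, 37.8 and 37.2 CPM in E112K clr6-1 and 3.72, 4.97 and 3.99 CPM in E112K (log2 fold change 3.15, adjusted p = 4.71e-11). The spore coat gene isp3 had 158, 174 and 164 CPM in E112K clr6-1 and 43.7, 42.7 and 44.3 CPM in E112K (log2 fold change 1.92, adjusted p = 2.39e-12). All 3 genes were several times higher in every E112K clr6-1 library than in any E112K library. The kinase regulator gene spo6 rose by 2.24, the metalloprotease gene mde10 by 1.64 and the septin gene spn7 by 1.31. The genes spo3 and spo14 fell by 0.39 and 0.18.

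The broader sets of genes named for meiotic expression also had more members higher than lower. They share members with the lists above, such as meu14, so their counts are not independent of those lists. Of 102 tested mug genes (meiotically upregulated genes), 66 rose (64.7%), 23 at least 2-fold (22.5%), and 20 fell, with a median of 0.37. Of 17 meu genes, 13 rose (76.5%), 5 at least 2-fold, and 1 fell. Among them mug146 had 56.0, 51.0 and 50.6 CPM in E112K clr6-1 and 5.12, 4.22 and 4.25 CPM in E112K (log2 fold change 3.54, adjusted p = 1.84e-11). On the lower side, mug8 fell to 48.2, 46.1 and 45.3 CPM in E112K clr6-1, against 114, 130.2 and 119 CPM in E112K (log2 fold change -1.38, adjusted p = 8.5e-11). Many genes of these lists overlap a neighbour. With overlapping genes left out, 12 of 15 recombination genes, 9 of 12 spore genes and 35 of 55 mug genes were higher, and 6, 4 and 10 of them at least 2-fold.

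Of 17 tested regulators of meiotic entry, 7 rose (41.2%) and 6 fell (35.3%), shares near those of all tested genes (40.2% and 38.6%). The gene of Ste11, the transcription factor that starts sexual differentiation, fell to 88.7, 118 and 122 CPM in E112K clr6-1, against 169, 159 and 148 CPM in E112K and 34.9, 36.5 and 36.5 CPM in WT (log2 fold change -0.53, adjusted p = 0.000144). The gene of Mei2, the RNA-binding protein that drives entry into meiosis, stood at 116, 125 and 122 CPM in E112K clr6-1 and 114, 109 and 111 CPM in E112K, a difference of 0.12 that did not pass (adjusted p = 0.0766). It passed with only the 6 mutant libraries in the fit (adjusted p = 0.0104) and without E112K clr6-1 replicate 1 (adjusted p = 0.0481). The gene of Mei4, the forkhead factor of middle meiosis, rose by 0.30 (adjusted p = 0.000984), and mmi1, whose product removes meiotic transcripts in growing cells, differed by 0.09 (adjusted p = 0.0801) and passed without E112K clr6-1 replicate 1 (0.14, adjusted p = 0.00688). One regulator rose at least 2-fold: cuf2, a meiotic copper-dependent factor, at 3.55, 3.13 and 2.03 CPM in E112K clr6-1 and 0.488, 0.289 and 0.311 CPM in E112K (log2 fold change 3.003, adjusted p = 3.07e-05). At these levels cuf2 was among the weakly expressed genes, and it overlaps another gene. It had 0 counts in WT and could pass the count filter only through E112K clr6-1, so its rise is not read as a result.

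**Figure D2:**
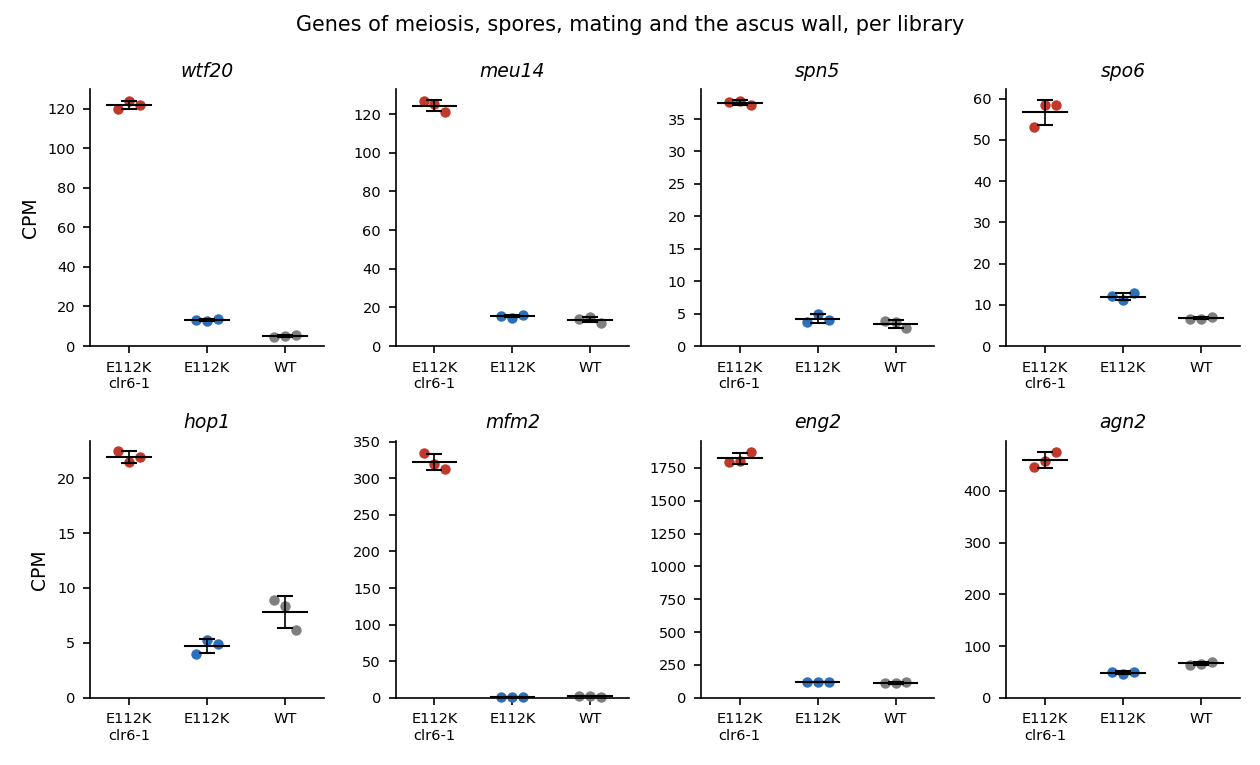
CPM per library (points), with mean and SD (bars), in E112K clr6-1, E112K and WT for a wtf gene, 3 spore formation genes, a meiotic axis gene, an M-factor gene and 2 glucanase genes; each vertical axis starts at 0. In all 8 panels the E112K clr6-1 libraries lie far above those of both other groups.

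Mating-type genes divided by mating type. The gene of the M-specific HMG-box factor, mat1-Mc, had 78.9, 72.6 and 74.0 CPM in the E112K clr6-1 libraries and 0 counts in every E112K library, with 2, 0 and 2 counts in WT, which makes it at least 1328-fold higher in E112K clr6-1 than in E112K. Of 9 tested M-cell genes, 8 rose, 5 at least 2-fold (55.6%), and mam3 did not pass. These counts include mat1-Mc, which could pass the count filter only through E112K clr6-1, so that its direction was fixed by the filter. All 3 genes for the M-factor pheromone rose. The gene mfm2 had 335, 319 and 313 CPM in E112K clr6-1, against 1.46, 1.68 and 1.19 CPM in E112K and 2.41, 2.63 and 1.72 CPM in WT (log2 fold change 7.81, SE 0.081, adjusted p = 1.48e-15). The means of mfm1 and mfm3 were 19.3 and 7.28 CPM in E112K clr6-1 and 2.41 and 0.889 CPM in E112K. The M-factor transporter gene mam1 had 175, 177 and 180.2 CPM in E112K clr6-1 and 90.8, 84.4 and 88.9 CPM in E112K (log2 fold change 1.01, adjusted p = 4.85e-11). The rise of the P-factor receptor gene mam2 was small (0.13, adjusted p = 0.042) and its call was lost with DESeq2 (adjusted p = 0.0549). It was lost in edgeR too, with upper quartile factors (0.0864), total counts as the only scaling (0.0668) and a replicate block (0.0644). So it was in 4 of the 6 fits without a library.

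P-cell genes moved the other way. Of 5 tested P-cell genes 4 fell and 1 rose, and the mat1-P genes were not analysed here. The P-factor gene map2 fell to 23.9, 24.4 and 24.2 CPM in E112K clr6-1, against 42.1, 41.5 and 43.2 CPM in E112K (log2 fold change -0.81, adjusted p = 1.35e-08). The M-factor protease gene sxa1 fell by 0.54, and map1, the MADS-box factor of P cells, and map3, the M-factor receptor gene, by 0.31 and 0.28. The P-cell adhesin gene map4 rose by 0.69. The summed level of the tested M-cell genes was 899.8 to 934 CPM in E112K clr6-1, 355 to 362 CPM in E112K and 311 to 327 CPM in WT. That of the P-cell genes was 834 to 866 CPM in E112K clr6-1, 1106 to 1156 CPM in E112K and 732 to 762 CPM in WT. Of 12 genes of pheromone signalling that both mating types use, 4 rose (33.3%) and 7 fell (58.3%). Among them ste6 rose (1.07) and the G-protein gene gpa1 fell (-0.66).

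Genes beside mat1-Mc and ura4 were then read in order. The next annotated genes on one side of mat1-Mc, SPBC23G7.10c and mag2, had means of 60.3 and 40.1 CPM in E112K clr6-1 and 2.21 and 1.88 CPM in E112K (log2 fold changes 4.77 and 4.41, adjusted p = 1.13e-12 and 2.5e-12). Both were under 5 CPM in every E112K and WT library. Further along, rpt6 and SPBC23G7.13c rose by 0.64 and 1.45, while on the other side rga7 fell (-0.43) and cms1 rose (0.77). The genes directly on each side of ura4, tam14 and new25, did not pass (0.32, adjusted p = 0.394, and -0.44, adjusted p = 0.126), and 8 of the 10 nearest were called, where 78.8% of all tested genes were. Of these, SPCC330.03c, the third gene to one side, fell to 9.40, 8.71 and 9.52 CPM in E112K clr6-1, against 43.9, 49.4 and 46.0 CPM in E112K (log2 fold change -2.33, adjusted p = 7.17e-11), whereas mug135 rose by 1.59 and the peroxiredoxin gene pmp20 by 0.61. The part of marker integration or of the mating-type locus in these values was not tested.

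**Figure D3:**
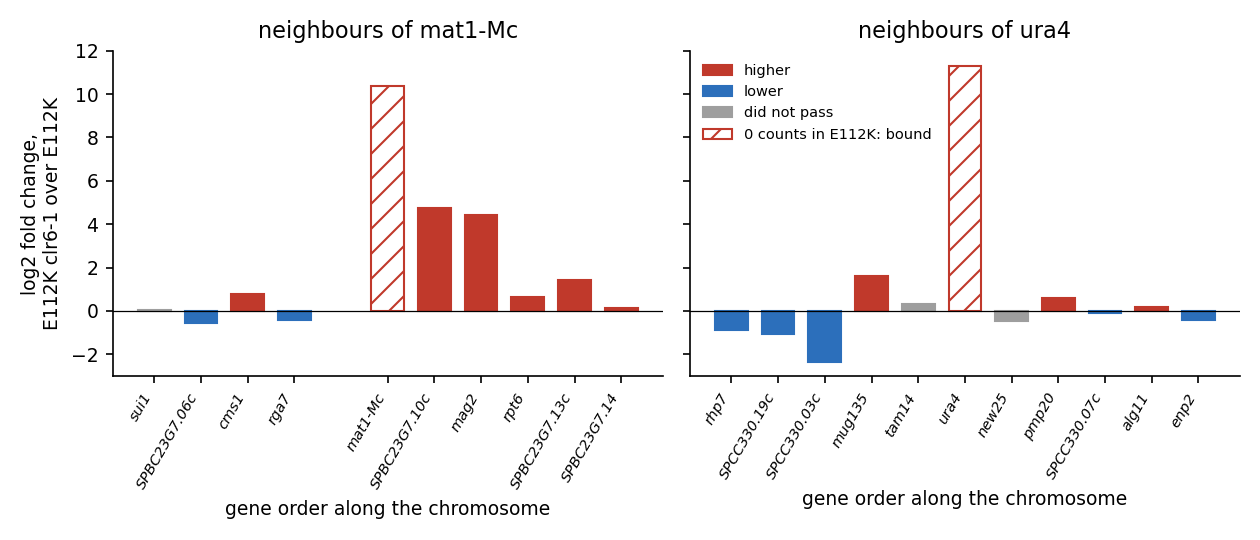
Log2 fold change of E112K clr6-1 over E112K for the genes in order on each side of mat1-Mc (left) and ura4 (right); red bars are higher, blue bars lower, grey bars did not pass, and hatched bars are bounds for genes with 0 counts in E112K. The space beside mat1-Mc is a gene that was not tested; SPBC23G7.10c and mag2 rise above 4 on the log2 scale, and SPCC330.03c falls below -2.

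All 3 urg genes, named for induction by uracil, fell. The uracil-induced gene urg2 had 50.1, 50.6 and 52.9 CPM in E112K clr6-1, 201, 208 and 193 CPM in E112K and 766, 707 and 788 CPM in WT (log2 fold change -1.97, adjusted p = 3.78e-12). The related urg1 had 72.3, 74.4 and 76.0 CPM in E112K clr6-1, against 227, 250.2 and 237 CPM in E112K and 886, 822 and 982 CPM in WT (log2 fold change -1.68, adjusted p = 8.55e-11). For both, the 3 groups were separate, with E112K clr6-1 lowest and WT highest. The fall of urg3 was much smaller, at 68.3, 68.2 and 70.4 CPM in E112K clr6-1 and 82.3, 91.7 and 92.0 CPM in E112K (log2 fold change -0.36, adjusted p = 5.33e-05). Of 11 tested uracil-regulated and pyrimidine genes, 4 rose (36.4%) and 5 fell (45.5%), 2 of the latter at least 2-fold. The rises include ura4, which could pass the count filter only through E112K clr6-1. Among the other genes used as auxotrophic markers, leu1, his3, lys1 and arg3 fell by 0.81, 0.62, 0.51 and 0.59, and ade6, ade7 and his7 rose by 0.45, 0.31 and 0.12.

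A pair of glucanase genes that open the ascus wall rose. The endo-1,3-beta-glucanase gene eng2 had 1794, 1804 and 1868 CPM in E112K clr6-1, against 119.6, 120.3 and 117 CPM in E112K and 109, 113 and 121 CPM in WT. It rose 15.3-fold (log2 fold change 3.94, SE 0.042, adjusted p = 1.48e-15), with replicates within a narrow band in each group. The alpha-1,3-glucanase gene agn2 had 446, 458 and 476 CPM in E112K clr6-1, against 50.4, 46.1 and 49.97 CPM in E112K and 64.3, 65.7 and 69.9 CPM in WT (log2 fold change 3.23, adjusted p = 1.04e-14). Their counterparts in cell separation, eng1 and agn1, rose by 0.72 and 0.44. Of 12 glucan hydrolases and transglycosylases, 9 rose (75%), 2 at least 2-fold, and exg1 alone fell (-0.59). Of 9 glucan synthases, 5 rose (55.6%) and 4 fell (44.4%). The spore wall synthase genes mok11, mok14 and bgs2 rose by 0.77, 0.91 and 0.49. The vegetative wall synthase genes bgs4, bgs1, bgs3 and ags1 fell by 0.43, 0.49, 0.33 and 0.53. Of 10 flocculin genes 5 rose (50%) and 3 fell (30%), with pfl9 the largest change (-1.37, adjusted p = 3.3e-11).

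Core stress genes were mostly lower in E112K clr6-1 than in E112K. Of 18 core stress genes, 14 fell (77.8%), 5 at least 2-fold (27.8%), and 3 rose, with a median log2 fold change of -0.49. The membrane-associated stress protein gene hsp9 had 534, 511 and 538 CPM in E112K clr6-1, 2408, 2307 and 2399.6 CPM in E112K and 121, 139 and 142 CPM in WT (log2 fold change -2.17, SE 0.051, adjusted p = 2.39e-12). The small heat-shock protein gene hsp16 had 292, 278 and 311 CPM in E112K clr6-1, 1105, 1018 and 990.4 CPM in E112K and an average of 21.0 CPM in WT (log2 fold change -1.82, adjusted p = 2.22e-11). In both genes the E112K clr6-1 libraries lay between WT and E112K without overlap. The trehalose synthase gene tps1 fell to 646, 642 and 679.7 CPM in E112K clr6-1, against 1269.8, 1224 and 1172 CPM in E112K (log2 fold change -0.90, adjusted p = 5.09e-10). The metallothionein gene zym1 and the nuclear envelope stress gene ish1 fell by 1.04 and 1.24. The summed level of the list was 6817 to 6963 CPM in E112K clr6-1, 11706 to 12501 CPM in E112K and 4049.9 to 4056 CPM in WT. With overlapping genes left out, 8 of 10 fell and 1 rose.

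Most genes of the pathway that controls stress genes fell. Of 16 genes of the Sty1 stress-activated MAP kinase pathway, 11 fell (68.8%) and 3 rose. The kinase gene sty1 had 241, 243 and 239 CPM in E112K clr6-1 and 524, 521 and 495 CPM in E112K (log2 fold change -1.09, adjusted p = 9.24e-12), and the gene of its transcription factor atf1 fell by 0.52. The kinase gene wis4 and the response regulator gene mcs4, which act above Sty1, both fell by 0.72. Of 16 genes of Pap1 and antioxidant defence, 9 fell (56.2%) and 5 rose (31.2%). The oxidative stress factor gene pap1 fell by 0.83 and the transporter gene caf5 by 1.34, whereas the transporter gene bfr1 rose by 1.04.

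Chaperone genes fell in part. Of 18 tested members 9 fell (50%), 3 at least 2-fold (16.7%), and 4 rose (22.2%). The Hsp70 gene ssa1 had 331, 299.7 and 344 CPM in E112K clr6-1, 1110.3, 1172 and 1044 CPM in E112K and an average of 76.1 CPM in WT (log2 fold change -1.77, adjusted p = 1.29e-11). The disaggregase gene hsp104 had 275, 249 and 275 CPM in E112K clr6-1 and 594, 668 and 545 CPM in E112K (log2 fold change -1.18, adjusted p = 4.72e-09). Both genes were again intermediate between E112K and WT. The heat-shock factor gene hsf1 fell by 0.43, whereas ssa2 and hsp90 rose by 0.32 and 0.22. The polyubiquitin gene ubi4, by CPM the most abundant gene that fell at least 2-fold, had 561, 568 and 474 CPM in E112K clr6-1, 2363, 2423 and 2337 CPM in E112K and 733, 766 and 768 CPM in WT (log2 fold change -2.15, adjusted p = 6.94e-12). Here E112K clr6-1 lay below WT as well. The eisosome genes pil1 and fhn1, whose products shape plasma membrane furrows, fell to means of 645 ± 27.4 and 494 ± 44.7 CPM in E112K clr6-1, against 1809 ± 77.7 and 1301 ± 107 CPM in E112K (SD, n = 3 each; log2 fold changes -1.49 and -1.40).

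**Figure D4:**
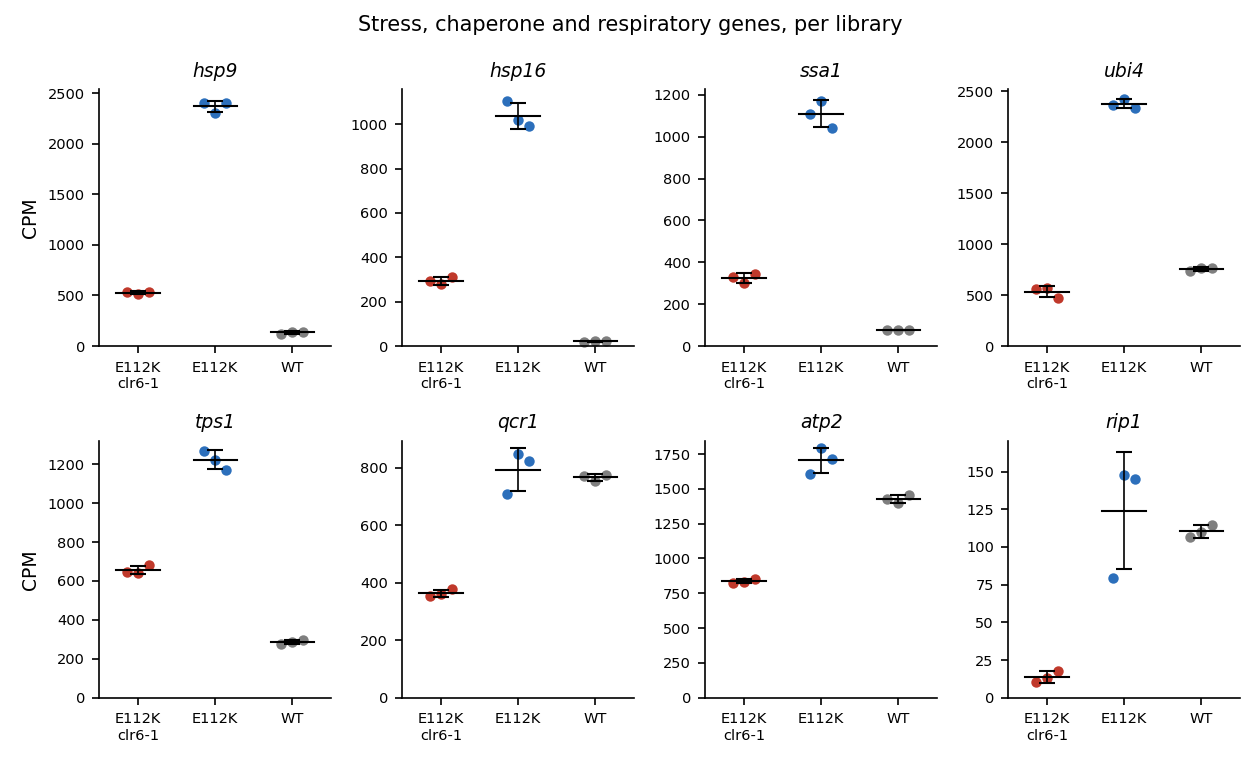
CPM per library (points), with mean and SD (bars), in E112K clr6-1, E112K and WT for 2 stress genes, an Hsp70 gene, the polyubiquitin gene, a trehalose gene and 3 respiratory genes; each vertical axis starts at 0. In all 8 panels the E112K clr6-1 libraries lie below those of E112K, and in the panels of qcr1, atp2, rip1 and ubi4 they lie below those of WT too.

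Respiratory genes fell. Of 29 nuclear genes of the respiratory chain and ATP synthase, 26 fell (89.7%), 4 at least 2-fold (13.8%), and none rose, with a median log2 fold change of -0.52. Their summed level was 4939 to 4966 CPM in E112K clr6-1, 7418 to 8491 CPM in E112K and 7926 to 7977 CPM in WT. The largest fall was that of rip1, the Rieske iron-sulphur protein gene of complex III, with 10.3, 13.0 and 17.9 CPM in E112K clr6-1, 79.3, 147 and 145 CPM in E112K and 106, 110.2 and 115 CPM in WT (log2 fold change -3.19, SE 0.23, adjusted p = 4.6e-08). Its E112K values were spread, with replicate 1 lowest, yet the lowest of them was above every E112K clr6-1 value. The gene rip1 overlaps ppa2 on the other strand, which had a log2 fold change of -0.24. The complex III core gene qcr1 had 353, 359 and 377 CPM in E112K clr6-1 and 708, 847 and 823 CPM in E112K (log2 fold change -1.13, adjusted p = 1.3e-09). The ATP synthase beta subunit gene atp2 had 827, 829 and 854 CPM in E112K clr6-1 and 1607, 1791 and 1715 CPM in E112K (log2 fold change -1.03, adjusted p = 1.6e-10). No E112K clr6-1 library of either gene reached the lowest E112K library. The cytochrome oxidase gene cox4 and the ATP synthase genes atp7 and atp4 fell by 0.96, 0.93 and 0.92. Without E112K replicate 2 the number at least 2-fold lower was 2. Of 13 tested genes of the tricarboxylic acid cycle, 6 rose (46.2%) and 3 fell (23.1%). Transcripts of 5 mitochondrially encoded genes passed the count filter at low levels in these poly(A)-selected libraries, and 4 of them fell, all at least 2-fold. Their summed level was 2.45 to 3.85 CPM in E112K clr6-1, 15.7 to 24.3 CPM in E112K and 2.66 to 3.12 CPM in WT. Members so weak in E112K clr6-1 and WT may have passed the count filter only through E112K, where they are higher. The count of their falls is therefore not read as a result.

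Glycolytic genes rose more often than they fell. Of 19 tested glycolytic and fermentation genes, 13 rose (68.4%) and 3 fell, with a median of 0.33. The phosphofructokinase gene pfk1, by CPM the most abundant gene that rose at least 2-fold, had 4005, 4151 and 4194 CPM in E112K clr6-1, 1761, 1781 and 1664 CPM in E112K and 2001, 1954 and 2115 CPM in WT (log2 fold change 1.246, SE 0.042, adjusted p = 4.33e-11). The phosphoglycerate mutase gene gpm1 rose by 0.83, the aldolase gene fba1 by 0.68 and the hexokinase gene hxk2 by 0.74. The second enolase gene eno102 fell to 312, 304 and 310.2 CPM in E112K clr6-1, against 797, 746 and 734 CPM in E112K (log2 fold change -1.30, adjusted p = 1.04e-11). The transaldolase gene tal1 of the pentose phosphate pathway rose by 1.35 and the aldehyde dehydrogenase gene atd1 by 1.44.

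Hexose transporters split. Of 18 hexose transporter and glucose-repressed genes, 9 rose (50%) and 6 fell (33.3%), with a median of 0.19. The main glucose transporter gene ght5 had 2657, 2889 and 2917 CPM in E112K clr6-1, 1196, 617 and 703 CPM in E112K and 3021, 2999 and 3090.4 CPM in WT (log2 fold change 1.75, SE 0.18, adjusted p = 1.17e-06). E112K replicate 1 stood well above the other two, but every E112K clr6-1 library was higher still, and lower than every WT library. The related gene ght8 fell to 609, 652 and 648 CPM in E112K clr6-1, against 1826, 1857 and 1889 CPM in E112K and 2380.2, 2349.7 and 2228 CPM in WT (log2 fold change -1.55, adjusted p = 4.18e-12). Of the other transporters, ght1 and ght3 rose by 1.49 and 1.12, ght2, ght4 and ght6 by 0.74, 0.80 and 0.67, and ght7 differed by -0.07 (adjusted p = 0.26). The glucose repressor gene scr1 fell by 0.57.

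Iron uptake genes were mostly higher in E112K clr6-1. Their summed level was 5203 to 5416 CPM in E112K clr6-1, 3364 to 4162 CPM in E112K and 1234 to 1289 CPM in WT. Of 14 genes of iron and heme uptake and their regulators, 9 rose (64.3%) and 3 fell, with a median of 0.46. The transporter gene str3 had 1079, 969 and 969.8 CPM in E112K clr6-1, 332, 285 and 278 CPM in E112K and an average of 3.16 CPM in WT (log2 fold change 1.75, adjusted p = 1.81e-10). The siderophore transporter gene str1 had 1498, 1453 and 1477 CPM in E112K clr6-1 and 1108, 785 and 779 CPM in E112K (log2 fold change 0.73, adjusted p = 4.21e-05). For str1 the E112K replicates were uneven, with replicate 1 nearest to E112K clr6-1. The siderophore synthesis gene sib2 and the iron oxidase gene fio1 rose by 0.74 and 0.57, while the heme uptake gene shu1 fell by 0.54. The gene of the iron-dependent repressor Fep1 differed by 0.11 (adjusted p = 0.238), and php4 fell by 0.15.

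Amino acid genes fell more often than they rose. Of 10 tested arginine genes 9 fell (90%), with a median of -0.52; the arginine synthesis genes arg4 and arg1 fell by 0.78 and 0.80 and the arginase gene car1 by 0.97. Of 27 other amino acid synthesis genes 16 fell (59.3%) and 7 rose (25.9%). The sulphur assimilation genes were among those that rose: sua1, the ATP sulphurylase gene, had 2467, 2345 and 2346 CPM in E112K clr6-1 and 999, 1035 and 987 CPM in E112K (log2 fold change 1.24, adjusted p = 7.51e-11), and met17, whose product makes homocysteine, rose by 1.85. Of 6 histidine genes 3 fell (50%) and 1 rose (16.7%), and of 10 purine synthesis genes 4 rose and 4 fell (40% each). Phosphate-responsive genes (9 tested) had 4 higher and 4 lower (44.4% each). Of these calls, pho4 was lost under 10 alternatives, DESeq2 among them (adjusted p = 0.136), and plb1 and pho7 under 2 each that leave out a library. Sterol and Sre1 genes (16 tested) had 6 higher (37.5%) and 5 lower (31.2%), while sre1 itself rose by 0.44.

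Chromosome and cell cycle genes changed by small amounts, apart from a few. The CENP-C gene cnp3 had 266, 261 and 259 CPM in E112K clr6-1, 87.1, 86.4 and 83.5 CPM in E112K and 205, 209 and 219 CPM in WT (log2 fold change 1.61, SE 0.033, adjusted p = 7.69e-13). E112K alone stood apart in this gene, with every library below those of both other groups. Of 24 kinetochore and CENP-A loading genes 8 rose (33.3%) and 10 fell (41.7%), with mis16 higher by 0.72 and sim4 and spc25 lower (-0.65 and -0.53). Of 17 cohesin and condensin genes 15 rose (88.2%) and none fell, none by as much as 2-fold, with a median of 0.36. Among these the cohesin regulator gene pds5 had 162, 177 and 179 CPM in E112K clr6-1 and 105, 106 and 109 CPM in E112K (log2 fold change 0.70, adjusted p = 4.47e-09).

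Genes of the G1/S transcription factor MBF were raised as well. Of 17 MBF genes 13 rose (76.5%) and 3 fell, with a median of 0.26; cdc10, which encodes a core MBF subunit, rose by 0.52, the replication licensing gene cdc18 by 0.66 and the ribonucleotide reductase gene cdc22 by 0.49. The largest change was in ctp1, the gene of the DNA end resection factor, with 198, 193 and 193 CPM in E112K clr6-1 and 91.9, 94.5 and 92.3 CPM in E112K (log2 fold change 1.07, adjusted p = 4e-11). Of 34 tested DNA damage checkpoint and repair genes 21 rose (61.8%), 3 at least 2-fold, and 4 fell. This list shares ctp1 and mrc1 with the MBF genes, so the counts of both lists are not independent. The checkpoint kinase genes tel1 and rad3 rose by 0.81 and 0.56, and brc1 by 0.98, while rad8 fell by 0.47. The recombination mediator genes rti1 and swi5 rose by 1.79 and 1.35. Replication helicase and origin genes (19 tested) had 9 higher (47.4%) and 6 lower (31.6%). Spindle checkpoint and passenger genes (12 tested) had 6 higher (50%) and 4 lower (33.3%). None in either list changed 2-fold.

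Ribosomal protein genes rose slightly and proteasome genes fell slightly. Of 136 cytosolic ribosomal protein genes 74 rose (54.4%) and 6 fell (4.41%), with a median log2 fold change of 0.12. A single member changed at least 2-fold: rpl1603, with 156, 167 and 165 CPM in E112K clr6-1, 45.6, 42.1 and 37.2 CPM in E112K and 143, 159 and 155 CPM in WT (log2 fold change 1.97, adjusted p = 2.21e-11). Ribosomal protein genes often occur as near-identical pairs, and rpl1603 overlaps another gene, so its share of reads is uncertain. Of 80 ribosome biogenesis genes 34 rose (42.5%) and 20 fell (25%), with a median of 0.06. Of 34 proteasome genes 25 fell (73.5%) and 3 rose, with a median of -0.25 and none changed 2-fold; rpn2 of the regulatory particle fell by 0.62, while rpt6, near mat1-Mc, rose. Autophagy genes and vacuolar proteases (28 tested) had 11 higher (39.3%) and 9 lower (32.1%).

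**Figure D5:**
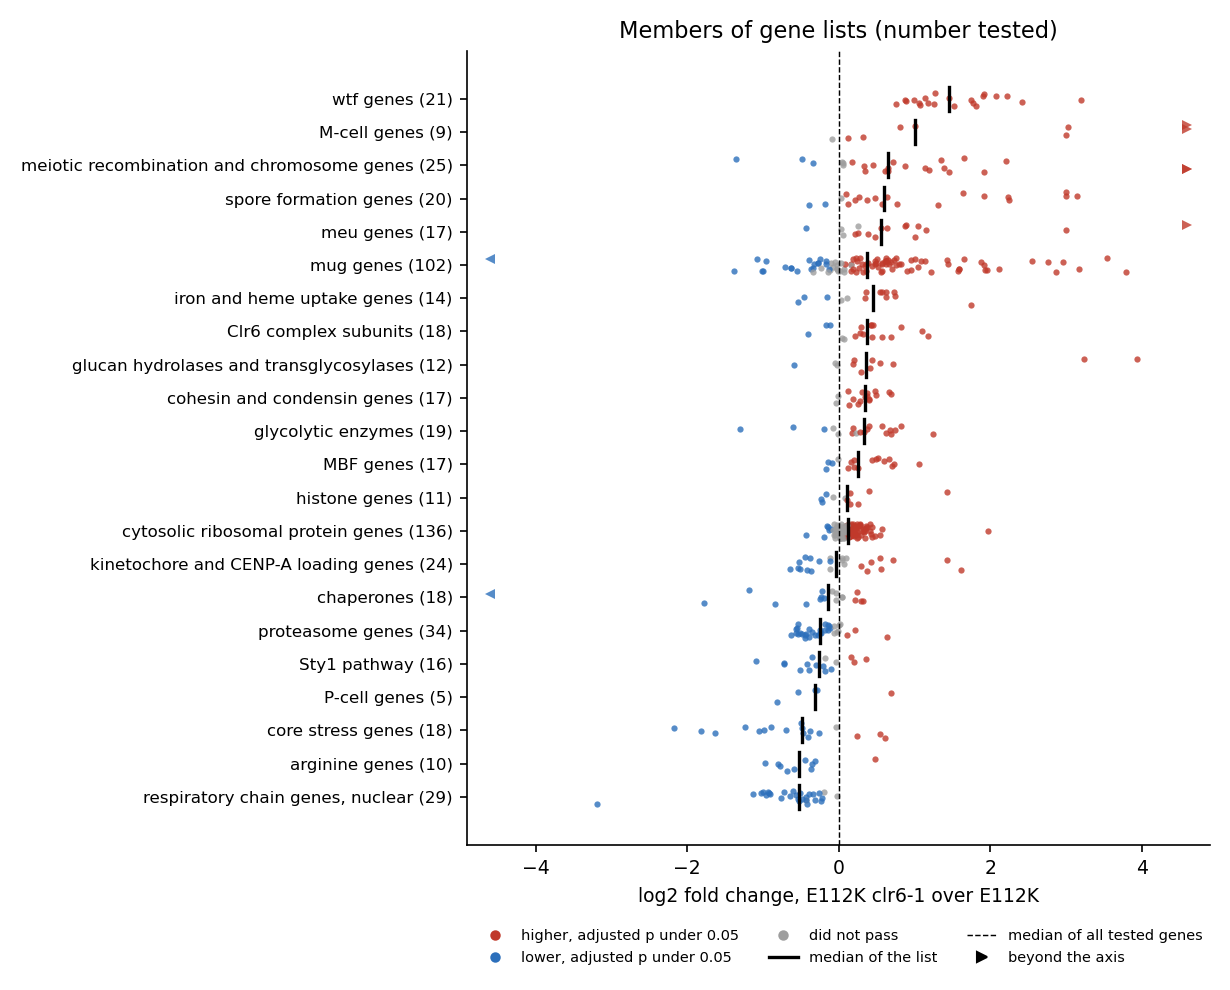
Log2 fold change of E112K clr6-1 over E112K (horizontal axis) for the tested members of 22 gene lists, 1 point per gene; red points rose, blue points fell and grey points did not pass, arrowheads lie beyond the axis, the short black line is the list's median and the dashed line the median of all tested genes (0.01). All wtf points lie to the right of 0 and all respiratory chain points to the left, with medians of 1.46 and -0.52.

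The very largest fold changes belong to genes with counts in one mutant group and none in the other, and 7 of these 11 genes overlap another gene. Higher in E112K clr6-1 were SPBC4F6.11c, with 21.6, 16.8 and 15.2 CPM against 0 counts in E112K (at least 316-fold), mde7, with 13.3, 9.16 and 16.8 CPM against 0 counts (at least 231-fold), and SPBC336.05c, with 9.40, 14.1 and 3.19 CPM against 0 counts (at least 157-fold). All 3 genes overlap a gene on the other strand, and those partners, vps901, SPCC320.06 and cdc6, had log2 fold changes of -0.43, 0.20 and -0.05. In WT, mde7 had 0, 0 and 34 counts and both others had none. All 3 could therefore pass the count filter only through E112K clr6-1, where they are higher. The meiotic gene meu6, higher at 254, 248 and 256 CPM in E112K clr6-1 against 7.13, 7.80 and 6.37 CPM in E112K (log2 fold change 5.16), overlaps clr4, which rose too. The assembled transcripts MSTRG.3648 and MSTRG.3654 rose by 7.10 and 5.93. The value of MSTRG.3648 was 8.34 without E112K replicate 2 and 6.46 without E112K replicate 3, and that of MSTRG.3654 was 10.6 without E112K replicate 3.

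On the lower side, 2 genes were clearly expressed in E112K and had no counts in E112K clr6-1. The co-chaperone gene bag101 had 0 counts in every E112K clr6-1 library, against 65.2, 64.1 and 52.3 CPM in E112K and 77.1, 69.1 and 78.2 CPM in WT (at least 1106-fold lower). It overlaps rrp42 and top3, which rose by 0.32 and 0.54. The gamma-glutamyltransferase gene ggt2 had 0 counts in every E112K clr6-1 library, against 46.3, 43.9 and 51.1 CPM in E112K and 2, 94 and 8 counts in WT (at least 859.9-fold lower), and its overlapping partner mug69 rose by 0.73. DESeq2 gave no adjusted p for ggt2. How reads were divided between such overlapping genes was not tested. The gene SPAC4F10.17, which overlaps no other, had 0 counts in E112K clr6-1, against 9.27, 8.38 and 11.3 CPM in E112K and 0 counts in WT (at least 177-fold lower). Both ggt2 and SPAC4F10.17 could pass the count filter only through E112K, where they are higher. Next in size were prl65 (-3.40), rip1, SPBC1289.14 (-2.92), the mitochondrial gene SPMIT.06 (-2.92), SPAC27E2.13 (-2.54) and cum1 (-2.54). The call of cum1 was lost with DESeq2 (adjusted p = 0.0662), and its 3 E112K clr6-1 libraries were uneven, at 2.85, 3.70 and 0.0581 CPM.

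Changed genes were spread over all 3 chromosomes. The median log2 fold change was -0.02 on chromosome I, 0.03 on chromosome II and 0.03 on chromosome III, and medians of 50 neighbouring genes ran from -0.29 to 0.24. Genes changed at least 2-fold made up a larger share near the ends of chromosomes I and II: of 54 tested genes under 50 kb from an end, 9 were at least 2-fold higher (16.7%) and 10 lower (18.5%), against 121 higher (3.57%) and 65 lower (1.92%) of 3385 genes beyond 500 kb; this difference has no test. The classes of distance were not matched for level, and genes weak in WT changed at least 2-fold in a larger share, as given further on. Changes near the ends ran in both directions. Of the runs of at least 3 neighbouring genes that moved at least 2-fold one way, named after their values were seen, the genes SPAC186.02c, SPAC186.03 and SPAC186.04c beside the flocculin gene pfl9 fell to means of 16.9, 23.8 and 15.9 CPM in E112K clr6-1, against 40.2, 50.6 and 39.3 CPM in E112K. The neighbours SPAC212.06c, SPAC212.04c and SPAC212.03 rose, with SPAC212.04c the strongest at 52.6, 52.6 and 49.9 CPM in E112K clr6-1 and 9.45, 7.69 and 7.56 CPM in E112K. The call of SPAC212.03 was lost without E112K clr6-1 replicate 2 (adjusted p = 0.0563). Another run, SPAC750.04c, SPAC750.05c and SPAC750.06c, rose as well (3.16, 1.43 and 1.92); the call of SPAC750.04c was lost with DESeq2 (adjusted p = 0.208), and its value was 8.14 without E112K replicate 2 and 2.53 without E112K replicate 3, where SPAC750.06c stood at 2.57. On chromosome III, SPCC569.03, SPCC569.02c and SPCC569.01c fell together (-1.19, -1.12 and -1.73), as did, more than 500 kb from an end of chromosome I, SPAC513.07, SPAC2E1P3.01 and the ammonium transporter gene amt3 (-1.37, -1.15 and -1.21).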

How the data were processed

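Per the labels, RNA was selected with oligo(dT) from whole cells of 3 libraries per genotype. The reads were processed with tools listed in the submitters' processing notes, with neither roles nor versions (fastp, HISAT2, Bowtie2, RSEM, StringTie, DESeq2). The sources used here give neither the genome build nor the annotation or counting strand. Each deposited table holds, per the file headers, a whole-number count and an FPKM value for 5212 genes in each library. The authors' FPKM served only to class genes by level in WT. The authors' tables of both mutants were joined by identifier; their WT counts are identical.

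Counts of all 9 libraries were fitted with edgeR 4.0.16 (quasi-likelihood test, TMM factors 0.987 to 1.025, filterByExpr) in R 4.3.3, and E112K clr6-1 was tested against E112K with Benjamini-Hochberg adjustment over 5119 genes. The biological coefficient of variation was 0.0389, and no pair of replicates in the mutants agreed within counting noise (chi-square per degree of freedom 3.84 to 9.67), so none was treated as a library deposited 2 times; this does not show separate cultures. For a gene at 0 in all libraries of a group, a bound was computed with 3 counts as that group's total; it reflects counting error alone. The procedure was tested on simulated data. Identifiers of 5109 genes matched ASM294v3, which served for names, gene order, overlaps and classes of distance; no coordinates are printed, and promoter motifs were not searched here.

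The comparison and its 45 gene lists were chosen with earlier results of these data known, so no list has a test of its own. The result of 1 list is not reported here. Named genes are the 10 largest rises and falls (groups that do not overlap, at least 5 CPM in the higher group), the 6 most abundant genes higher and lower at least 2-fold, up to 8 members per list by adjusted p with its regulators, histone, marker and mating-type genes, and runs beside these; other neighbours of mat1-Mc and ura4, list members named for contrast and the remaining runs were named after their values were seen. Alternatives were DESeq2 1.42.0, other scalings and filters, the mutant libraries alone, a 1.5-fold null, a replicate block and leaving out each library.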

Additional observations from a re-analysis of the deposited data

How the results depend on the processing

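No called value changed direction, and no gene called in one direction was called in the other, under any alternative. The number of genes called depended on the null hypothesis by construction: when a change of more than 1.5-fold had to be shown (edgeR's glmTreat), 724 genes passed, 422 higher and 302 lower, in place of 4035, 2060 and 1975. Leaving out each library of the mutants in turn gave 3850 to 3963 called genes, 1965 to 2053 higher and 1863 to 1910 lower, and 369 to 384 genes changed at least 2-fold, 224 to 236 higher and 141 to 151 lower. DESeq2 called 3944 genes, and 372 at least 2-fold. Of the 374 genes changed at least 2-fold, 357 to 372 were shared with each alternative. Over 387 named genes, 10 lost and 7 gained the call under some alternative other than glmTreat, leaving out ggt2, for which DESeq2 gave no adjusted p. At low counts a single library could set the size of a change.

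Replicate numbers did not pair the mutant samples: deviations of same-numbered libraries correlated at 0.07, -0.05 and 0.13. With the replicate block 4015 genes were called, 2050.0 higher and 1965 lower, and 373 at least 2-fold, 229 higher and 144 lower.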

Other observations

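Genes weak in WT, a group outside the comparison, were changed at least 2-fold in a larger share than abundant ones, with no test made of the difference. Of 339 tested genes at 1 to 10 FPKM in WT, 76 were at least 2-fold higher in E112K clr6-1 than in E112K (22.4%) and 25 lower (7.37%). Of 3510 genes at 10 to 100 FPKM, 106 were higher (3.02%) and 78 lower (2.22%), and of 1170 genes at 100 FPKM and over, 9 were higher (0.769%) and 24 lower (2.05%). Genes under 1 FPKM in WT are left out of this reading, since most could pass the count filter only through a mutant group. Of genes that overlap a protein-coding gene on the other strand, 3.97% of 1890 were at least 2-fold higher and 2.12% lower, against 4.36% and 2.96% of 3140 genes without such overlap. Of 73 tested assembled transcripts, whose identifiers have no match in the reference annotation, 33 rose (45.2%), 16 of them at least 2-fold (21.9%). They include wtf33, which is counted among the wtf genes as well. Another 17 fell (23.3%), 7 of them at least 2-fold (9.59%).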
